A study of Mus musculus with 42 samples.

Results

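The RNA of 7 genes that mark the oocyte was followed through the first cleavages of mouse embryos: Zp2 and Zp3 (zona pellucida glycoproteins), Figla and Nobox (oocyte transcription factors), Mos (the kinase of meiotic arrest), Cpeb1 (a cytoplasmic polyadenylation factor) and Bcl2l10 (a Bcl2 family protein). They were taken by name, as the oocyte and zona genes of the expression table, and are 7 of its 15747 complete gene rows. The table has 9 columns, 1 for each group of RNA-seq samples, and each group is labelled with 2 libraries of 3 embryos. All embryos came from superovulated ICR females mated with ICR males and were cultured in KSOM medium, with the zona removed before lysis. The groups were early 2-cell embryos collected 34 h after hCG, the hormone that triggers ovulation, late 2-cell embryos at 48 h and 4-cell embryos at 58 h. At the late 2-cell stage there were 5 groups: control embryos in DMSO, embryos given FK866, an inhibitor of NAMPT in the NAD+ salvage pathway, at 0.01 µM, embryos given FK866 with 10 µM NMN, the product of NAMPT, embryos given TSA, an inhibitor of class I and II histone deacetylases, at 10 nM, and Sirt1 knockdown embryos, whose zygotes were injected with siRNA, Trim21 mRNA and an antibody to SIRT1. At the 4-cell stage there were control, FK866 and FK866+NMN groups. The knockdown lowers the RNA and protein without deleting the gene, and each library is a pool, so single embryos were not seen. In the paper, zygotes given scrambled siRNA and Trim21 mRNA were the negative control of the knockdown, but the labels name only 1 late 2-cell control group. They do not tell whether its embryos were injected, so effects of injection and of the knockdown cannot be told apart.

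A growing oocyte makes and stores nearly all the RNA that the embryo uses until its own genome is switched on at the 2-cell stage, and that stored RNA is then degraded. FIGLA is a basic helix-loop-helix factor that binds E-box sequences in the zona genes, and NOBOX is a homeobox factor that acts in the same follicles. CPEB1 binds U-rich elements in the 3' ends of stored RNAs, and their poly(A) tails are lengthened when meiosis resumes, Mos being a well-known target of this kind. BCL2L10 is among the most abundant Bcl2 family members of eggs.

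Each deposited value is an FPKM, reads scaled to exon length in kilobases and to library size by the usual FPKM factor, and 7 of the columns are sums of 2 libraries. Because reads are whole, the 2 libraries could be separated, giving 16 libraries of 3169677 to 10003481 reads. Within a column, A names the library with more reads and B that with fewer. A single library was found under the headers 4-cell FK866 and 4-cell FK866+NMN. The labels name no separate cultures or animals behind the libraries, so p-values measure only the spread between these libraries. The headers and the published values of genes did not name the same group for 5 columns. By the published values the column headed late 2-cell TSA was 4-cell control, that headed late 2-cell Sirt1 was 4-cell FK866, that headed 4-cell control was 4-cell FK866+NMN, that headed 4-cell FK866 was late 2-cell TSA and that headed 4-cell FK866+NMN was late 2-cell Sirt1. Results that the naming touches are therefore given by both readings. Sirt1, the target of the knockdown, was at 32.4 and 73.1 FPKM in the libraries headed late 2-cell Sirt1 and at 86.6 and 66.2 FPKM in late 2-cell control, with a log2 fold change of -0.63 ± 0.50 (SE, adjusted p = 0.409). In the column headed 4-cell FK866+NMN it was at 11.3 FPKM (log2 fold change against late 2-cell control -2.64 ± 0.61 SE, adjusted p = 0.0748), and in that headed 4-cell FK866 at 7.61 FPKM (log2 fold change -3.16 ± 0.61 SE, adjusted p = 0.00826). It was at 13.5 and 6.18 FPKM in early 2-cell. The libraries headed late 2-cell Sirt1 were thus not called lower in Sirt1, and the level of Sirt1 was low in both columns of 1 library. The 2 libraries of late 2-cell FK866+NMN stood apart from each other, with a Pearson r of 0.416 over 6409 genes, where the other 6 pairs had 0.731 to 0.869.

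The sequences below are those through which 2 of these factors are known to reach their targets. Of the 7 genes, 4 have an entry in the RefSeq promoter windows (GRCm38.p6, 250 bases before to 50 bases after the start of transcription): Zp3, Figla, Nobox and Cpeb1. Zp3 is shown as the zona gene of the set and Figla as the gene of the factor itself, 5' to 3' on the strand of the gene, with the letters CANNTG of the E-box in capitals. The Zp3 window lies at chr5:135979855-135980154 on the plus strand and that of Figla at chr6:86016941-86017240 on the plus strand. By GENCODE M21 the Figla gene starts at 86016171, so its whole window lies inside the gene. The Cpeb1 window (chr7:81454709-81455008, minus strand) also lies inside its gene, which starts at 81455465 by GENCODE M21. Positions are counted from the RefSeq start, which differs from the GENCODE start for these genes.
Zp3 promoter: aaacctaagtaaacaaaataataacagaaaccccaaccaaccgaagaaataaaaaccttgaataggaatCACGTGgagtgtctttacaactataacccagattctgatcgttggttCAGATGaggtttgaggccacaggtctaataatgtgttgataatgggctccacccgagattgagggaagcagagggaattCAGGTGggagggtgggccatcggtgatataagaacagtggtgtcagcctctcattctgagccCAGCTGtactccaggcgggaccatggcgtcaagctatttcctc
Figla promoter: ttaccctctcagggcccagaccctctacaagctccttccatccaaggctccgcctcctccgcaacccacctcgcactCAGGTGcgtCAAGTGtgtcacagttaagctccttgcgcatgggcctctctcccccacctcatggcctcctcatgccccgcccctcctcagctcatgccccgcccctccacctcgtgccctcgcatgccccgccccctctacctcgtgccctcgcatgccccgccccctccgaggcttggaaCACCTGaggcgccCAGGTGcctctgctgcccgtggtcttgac
The Zp3 window held 4 E-box matches, starting at -181, -134, -55 and 8 from the first transcribed base. The Figla window also held 4, at -173, -164, 9 and 22. Nobox (-137 and -50) and Cpeb1 (-63 and 25) held 2 each. The pattern is common: of 32851 promoter windows of this length 72.3% held at least 1, 39.6% at least 2 and 6.49% at least 4. The NOBOX element, TAATTA or TAATTG on either strand, was in none of the 4 windows and in 12.4% of all windows. TATAAA was found on either strand in 13.6% of all windows, and among the 4 only in Cpeb1, on the opposite strand at -30.

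**Figure D1:**
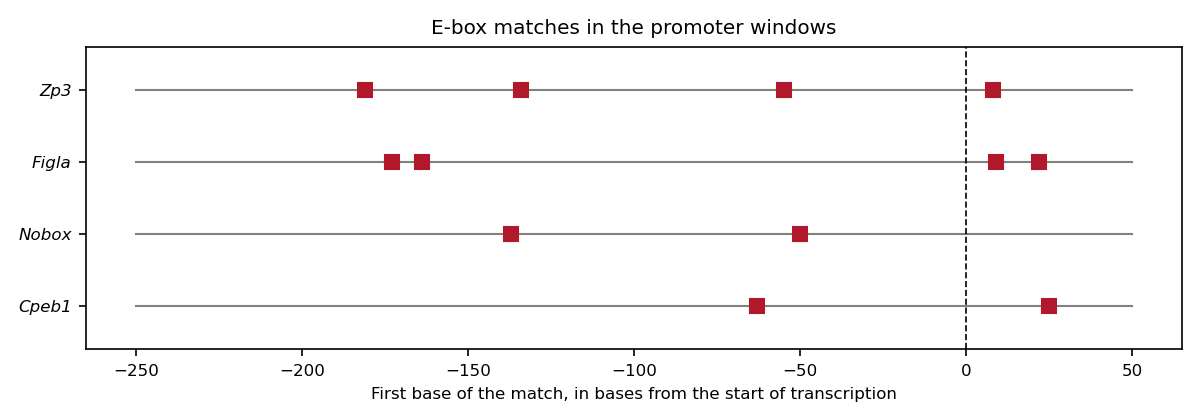
First bases of the E-box matches (red squares) in the promoter windows of 4 genes, by distance in bases from the RefSeq start of transcription (dashed line). Zp3 and Figla hold 4 matches each, Nobox and Cpeb1 hold 2 each.

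At the 3' end, the last 100 bases of the 3' UTR of 1 transcript a gene, or all of a shorter 3' UTR, were searched. The search was for TTTTAT or TTTTAAT, forms of the element that CPEB1 binds, and for the poly(A) signals AATAAA and ATTAAA. The ends of Bcl2l10, the only one of the 7 with a match to either form in the bases searched, and of Mos are shown with the matches in capitals.
Bcl2l10 (chr9:75351590-75351619, plus strand): tTTTTAATaacttcaaattcttAATAAAtg
Mos (chr4:3870657-3870679, minus strand): aAATAAAgttaccacgaacttca
In Bcl2l10 the element starts 42 bases and the poly(A) signal 21 bases before the end of the transcript. Over 20709 genes with a 3' UTR, 17.1% held either form of the element and 77.1% a poly(A) signal in this stretch. A poly(A) signal was found in 6 of the 7 genes, all but Zp3, whose 3' UTR has 13 bases in this transcript. The 3' UTR of Zp2 has 49 bases, so fewer than 100 bases were searched in both zona genes. A match of letters is a description and does not show that a site is used. Other forms of the element, bases further from the end and other transcripts were not searched. The lack of a match in Mos or another gene therefore does not show that it has no such element.

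Zp2 (chr7:120126772-120145291, minus strand) encodes a zona protein that sperm bind. It was at 59.8 and 45.4 FPKM in the early 2-cell libraries, at 36.5 and 37.6 FPKM in late 2-cell control and at 30.3 and 23.3 FPKM in late 2-cell FK866. In late 2-cell FK866+NMN it was at 0 reads in library A, where 3 reads would be 0.130 FPKM, and at 24.2 FPKM in library B. The columns headed late 2-cell TSA (0 and 2.64 FPKM), late 2-cell Sirt1 (4.59 and 5.68 FPKM) and 4-cell control (9.32 and 6.96 FPKM) were the 3 lowest. The 2 columns of 1 library, headed 4-cell FK866 and 4-cell FK866+NMN, held 75.9 and 42.8 FPKM. In the order of the levels, late 2-cell FK866 overlapped late 2-cell FK866+NMN and the latter overlapped the column headed 4-cell control, while the libraries of late 2-cell control and FK866 did not overlap.

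Zp3 (chr5:135980099-135988624, plus strand), which encodes the other major zona protein of the set, did not follow Zp2. It was at 35.4 and 25.7 FPKM in early 2-cell and at 66.2 and 43.7 FPKM in late 2-cell control. Late 2-cell FK866 had 27.6 and 3.72 FPKM, and late 2-cell FK866+NMN 0 and 38.6 FPKM, so the 2 libraries of each group lay far apart. The columns headed TSA (27.6 and 32.7 FPKM), Sirt1 (49.4 and 32.2 FPKM) and 4-cell control (39.7 and 63.0 FPKM), where Zp2 was lowest, did not show a drop of that size. The first and second overlapped early 2-cell and the third lay above it. Set against late 2-cell control, the TSA-headed column was 1.82-fold lower without overlap, and the other 2 overlapped it. The single libraries headed 4-cell FK866 and 4-cell FK866+NMN had 56.5 and 63.8 FPKM. Every pair of neighbours in its order with 2 libraries each overlapped. Over the 9 columns the levels of Zp3 and Zp2 had a Pearson r of 0.246 on the log2 scale, given as a description.

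Figla (chr6:86016171-86020996, plus strand) had 21 and 18 reads in the early 2-cell libraries, or 4.45 and 4.64 FPKM. It had 60 reads in library A of late 2-cell FK866, or 8.01 FPKM, and 0 reads in library B. The other 12 libraries had 0 reads, where 3 reads would be 0.359 to 1.13 FPKM. Figla was therefore detected in 3 of the 16 libraries.

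Nobox (chr6:43303674-43309554, minus strand) was at 172 and 217 FPKM in early 2-cell, far above every other library. It was at 11.5 and 19.0 FPKM in late 2-cell control, 7.60 and 20.9 FPKM in late 2-cell FK866 and 49.7 and 15.3 FPKM in late 2-cell FK866+NMN, groups that overlapped. The column headed late 2-cell TSA had 0 and 7 reads, that headed late 2-cell Sirt1 0 and 0 reads, and that headed 4-cell control 31 and 1 reads, or 2.81 and 0.107 FPKM. The header 4-cell FK866 had 200 reads, or 21.2 FPKM, and 4-cell FK866+NMN had 50 reads.

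Mos (chr4:3870657-3872105, minus strand) had 79 and 52 reads in early 2-cell, or 9.67 and 7.73 FPKM, and 48 and 43 reads in late 2-cell control, or 5.08 and 7.13 FPKM. It had 0 reads in both libraries of late 2-cell FK866, of late 2-cell FK866+NMN and of the column headed late 2-cell TSA, and in both columns of 1 library. In the column headed late 2-cell Sirt1, library A had 294 reads, the highest of all at 20.3 FPKM, and library B had 0 reads, where 3 reads would be 0.653 FPKM. In that headed 4-cell control, library A had 18 reads and library B had 0.

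Cpeb1 (chr7:81347026-81455465, minus strand), whose gene overlaps the processed pseudogene Rpl7a-ps9 on the other strand, was highest in early 2-cell at 20.7 and 29.02 FPKM. It was at 7.28 and 3.55 FPKM in late 2-cell control and at 10.6 and 20.4 FPKM in late 2-cell FK866, 2 groups that did not overlap. Late 2-cell FK866+NMN had 2.99 FPKM in library A and 0 reads in library B. The columns headed TSA (0 and 1.35 FPKM), Sirt1 (4.15 and 2.26 FPKM) and 4-cell control (0.828 and 0.0514 FPKM) were low, and the 2 columns of 1 library, headed 4-cell FK866 and 4-cell FK866+NMN, held 10.9 and 1.11 FPKM.

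Bcl2l10 (chr9:75347758-75351632, plus strand) was the most abundant of the 7 wherever it was high. The early 2-cell column held 2081 FPKM per library, but its 2 libraries could be separated in 3 ways, with library A at 2258 to 3032 FPKM and library B at 1130 to 1905 FPKM. It was at 830 and 1008 FPKM in late 2-cell control, 1234 and 1141 FPKM in late 2-cell FK866 and 1863 and 1552 FPKM in late 2-cell FK866+NMN, and these 3 groups did not overlap. It took 0.103 to 0.230% of the reads of these 6 libraries. Under the header late 2-cell TSA it had 4 and 3 reads, or 0.472 and 0.372 FPKM. Its column headed late 2-cell Sirt1 had 15.6 and 12.0 FPKM, and that headed 4-cell control 44.4 and 12.4 FPKM. The single libraries headed 4-cell FK866 and 4-cell FK866+NMN had 577 and 561 FPKM.

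**Figure D2:**
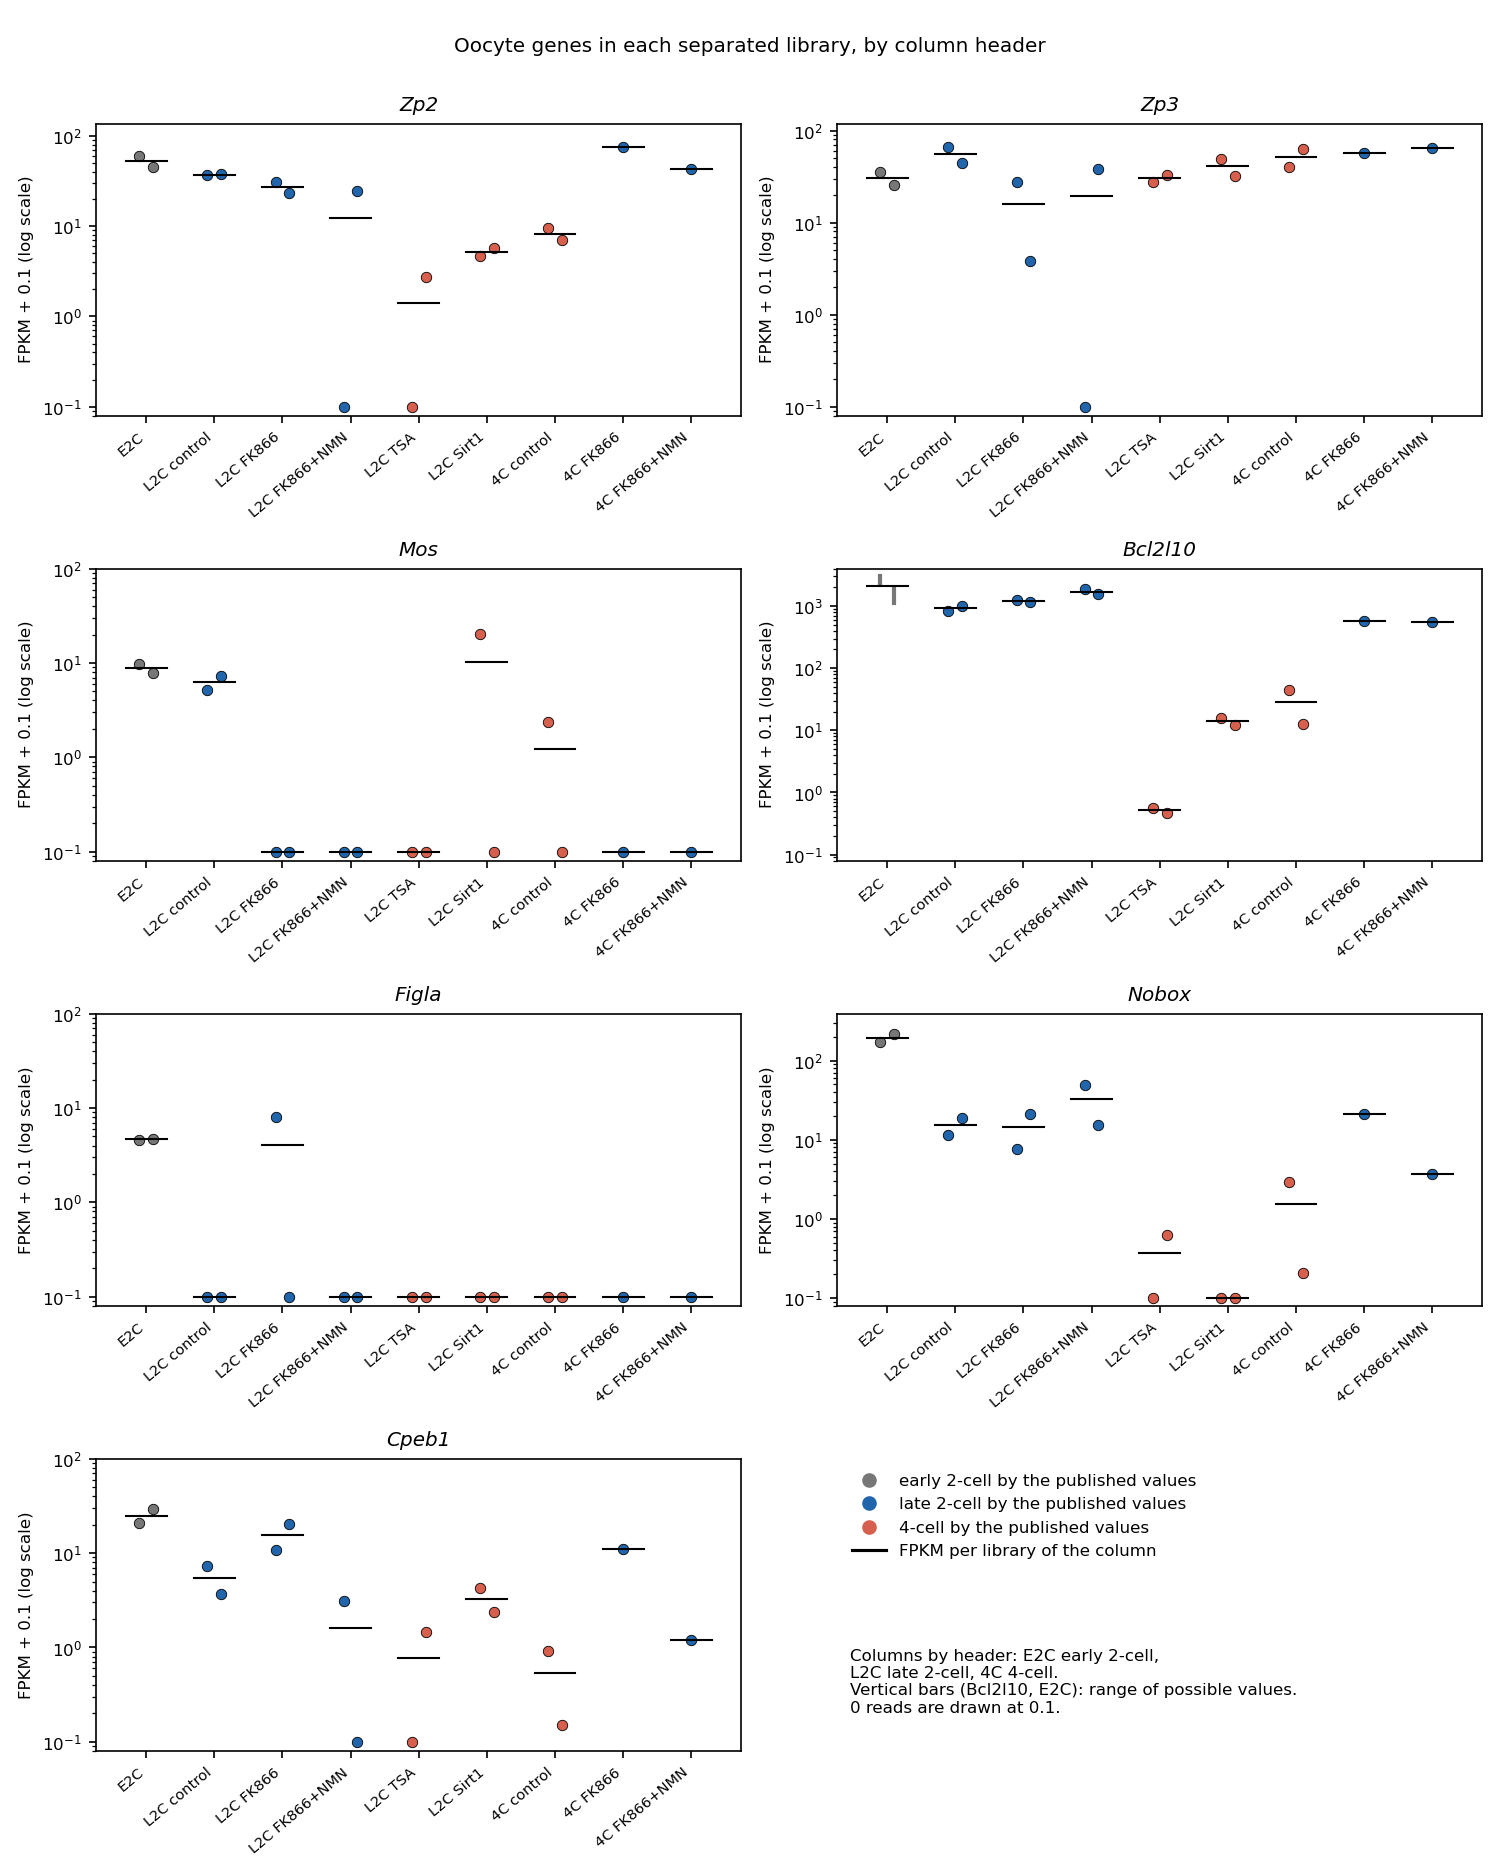
FPKM + 0.1 (log axis) of the 7 genes in each of the 16 libraries (points), by column header, with the column's FPKM per library as a black line and the stage by the published values as colour. Bcl2l10 lies between 0.372 and 44.4 FPKM in the 6 libraries headed late 2-cell TSA, late 2-cell Sirt1 and 4-cell control and at 561 FPKM or more in the others, and Figla is seen in 3 libraries.

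The difference between the 2 readings can be set out by stage. With the published naming, the 5 late 2-cell columns held 561 to 1707 FPKM of Bcl2l10 and the 3 4-cell columns 0.422 to 28.4 FPKM. For Zp2 the ranges were 12.1 to 75.9 FPKM and 1.32 to 8.14 FPKM, and for Nobox 3.598 to 32.5 FPKM and 0 to 1.46 FPKM, so that 3 of the 7 genes were lower in every 4-cell column than in any late 2-cell column. Cpeb1 (1.11 to 15.5 against 0.440 to 3.20 FPKM), Zp3, Mos and Figla overlapped. Of 11739 genes with at least 1 FPKM in some of these columns, 14.6% were lower in this way and 13.7% higher. By the headers none of the 7 genes separated the stages, and over all genes 0.29% were lower and 0.656% higher at the 4-cell stage. The 7 genes took no part in naming the columns.

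Between early 2-cell and late 2-cell control, the transcription factors fell. Nobox fell 12.8-fold, from 194 ± 32.2 FPKM (SD, n = 2) to 15.2 ± 5.28 FPKM (SD, n = 2), with a log2 fold change of -3.62 ± 0.76 (SE, adjusted p = 0.00879). Figla fell from 4.55 ± 0.129 FPKM (SD, n = 2) to 0 reads in both libraries, at least 13.5-fold lower against 3 reads over the 2 libraries (adjusted p = 0.0487). Cpeb1 was 4.59-fold lower without passing the test (log2 fold change -2.06 ± 0.77 SE, adjusted p = 0.0918), though it was called with a pseudocount of 5 (adjusted p = 0.0159) and in a fit of the compared columns alone (adjusted p = 0.0475). Zp2, Zp3 and Mos differed by less than 2-fold (adjusted p = 0.682 to 0.782). Bcl2l10 was 2.27-fold lower by column, with adjusted p = 0.107 to 0.215 over the 3 ways of separating it, an alternative added after the data were seen. Log2 fold changes are limma estimates on log2(FPKM + 1), which understate the change of low genes. Changes given as a number of folds are ratios of the column levels per library, so they can differ from the limma estimates. Adjusted p-values are by Benjamini-Hochberg over all genes tested. So 2 of the 6 genes tested were called, both lower, where 18.8% of the 9996 genes tested were called in either direction and 9.31% lower. The median log2 fold change of the 6 was -1.27 and that of all genes -0.12. In whole embryos, fewer cells with a transcript and less of it per cell cannot be told apart. The Figla call was lost without any of the 4 libraries, and the Nobox call without early 2-cell library B (adjusted p = 0.0602) or late 2-cell control library A (adjusted p = 0.0537). The Figla call was also lost with a pseudocount of 5 (adjusted p = 0.0746), no filter (adjusted p = 0.0791), median centring (adjusted p = 0.0612) or a minimum of 5 FPKM, which left it untested, and the Nobox call with a pseudocount of 0.1 (adjusted p = 0.0892).

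The effect of blocking NAD+ salvage was asked by setting late 2-cell FK866 against control, and both readings give these columns. None of the 7 genes was called by limma, where 0.496% of 9467 genes were, and 1 of the 7 had an unadjusted p below 0.05. That gene was Mos, with 48 and 43 reads in control and 0 in both FK866 libraries, at least 50.4-fold lower against 3 reads over the column (log2 fold change -2.81 ± 1.15 SE, adjusted p = 0.444). The limma-voom fit on the recovered reads called it (adjusted p = 0.0261). Cpeb1 was 2.87-fold higher (1.36 ± 0.77 SE, adjusted p = 0.455), Zp3 was 3.51-fold lower (-2.24 ± 1.39 SE, adjusted p = 0.493), and Bcl2l10, at 1.29-fold, had a log2 fold change of 0.38 ± 0.50 (SE, adjusted p = 0.772). Figla rested on 1 library: without late 2-cell FK866 library B it was called higher, at adjusted p = 0.000122.

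With NMN added to FK866 at the late 2-cell stage, none of the 6 genes tested was called by limma, with 1 at an unadjusted p below 0.05, where 3.49% of 8914 genes were called. Cpeb1 was 10.4-fold lower than with FK866 alone, at 1.49 ± 2.11 FPKM against 15.5 ± 6.89 FPKM (SD, n = 2 each), with a log2 fold change of -2.98 ± 0.77 (SE, adjusted p = 0.0702). The median over all genes was -0.53 in this comparison, and 0.75 with median centring, so its sign depends on the scaling. With NMN added, 7945 values were above 0, against 10160 with FK866 alone. The gene rows held a similar share of the reads in both, 61.1 and 61.4%. The cause of the low median was not tested. Among the libraries given NMN, Zp2 and Zp3 were at 0 in library A and Cpeb1 in library B. With library A alone, Zp2 (adjusted p = 0.00269) and Zp3 (adjusted p = 0.0299) were called lower, and with library B alone Cpeb1 was (adjusted p = 0.0152), so each call depends on which library is kept. Mos had 0 reads in all 4 libraries and was not tested.

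For TSA, the column headed so differed from late 2-cell control in 3 of the 6 genes tested, all lower, where 17.1% of 9049 genes were called and 11.4% called lower. Bcl2l10 fell by 9.33 on the log2 scale (SE 0.50, adjusted p = 5.27e-05), from 919 ± 126 FPKM to 0.422 ± 0.0708 FPKM (SD, n = 2 each). Nobox fell by 3.67 (SE 0.76, adjusted p = 0.00952) and Zp2 fell by 4.32 (SE 1.19, adjusted p = 0.0337). Mos (log2 fold change -2.81, adjusted p = 0.131), Cpeb1 (8.01-fold lower, adjusted p = 0.111) and Zp3 (-0.82, adjusted p = 0.686) were not called, though limma-voom called Mos (adjusted p = 0.0088), and the median of all genes was -0.44. The Zp2 call was lost without late 2-cell control library A, late 2-cell control library B or the TSA-headed library A (adjusted p = 0.105, 0.107 and 0.194), and the Nobox call without control library B (adjusted p = 0.0502) or that library A (adjusted p = 0.0628). In the published naming this is 4-cell control against late 2-cell control, and TSA is the column headed 4-cell FK866. Mos had 0 reads in that column, at least 13.8-fold lower than late 2-cell control against 3 reads (-2.81 ± 1.41 SE). That single library differed from late 2-cell control in none of the 6 genes, with 0 at an unadjusted p below 0.05 and 11.6% of 9401 genes called. Bcl2l10 was 1.59-fold lower there (log2 fold change -0.66 ± 0.61 SE, adjusted p = 0.519) and Zp2 was 2.05-fold higher (1.01 ± 1.46 SE, adjusted p = 0.682).

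For the Sirt1 knockdown, the column headed so differed from control in Bcl2l10 and Nobox, 2 of the 6 genes tested, where 12.9% of 9275 genes were called and 8.35% called lower. Bcl2l10 fell by 5.96 (SE 0.50, adjusted p = 0.000612), to 13.8 ± 2.55 FPKM (SD, n = 2). Nobox fell by 3.98 (SE 0.76, adjusted p = 0.00908), to 0 reads, at least 135-fold lower against 3 reads over the column. Zp2 was 7.23-fold lower (-2.64 ± 1.19 SE, adjusted p = 0.186), and was called in a fit of the compared columns alone (adjusted p = 0.0314). In the published naming the knockdown is the single library headed 4-cell FK866+NMN. Mos had 0 reads in it, at least 20.4-fold lower than late 2-cell control against 3 reads (-2.81 ± 1.41 SE). None of the 6 genes was called there, with 0 at an unadjusted p below 0.05, where 1.54% of 8754 genes were called. Nobox was 4.24-fold lower (-1.78 ± 0.93 SE, adjusted p = 0.563), Cpeb1 4.90-fold lower (-1.54 ± 0.95 SE, adjusted p = 0.623) and Bcl2l10 1.64-fold lower (-0.70 ± 0.61 SE, adjusted p = 0.702).

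From late 2-cell to 4-cell control, Bcl2l10 and Nobox fell by either reading. By the headers Bcl2l10 fell by 5.22 (SE 0.50, adjusted p = 0.00178) to 28.4 ± 22.7 FPKM (SD, n = 2) and Nobox fell by 2.94 (SE 0.76, adjusted p = 0.0374) to 1.46 ± 1.91 FPKM (SD, n = 2), 2 of 6 genes tested, where 10.3% of 9410 genes were called and 6.42% called lower. By the published values this comparison has the values given above for the TSA-headed column, with Bcl2l10, Nobox and Zp2 called lower. Zp3 was not called by either reading, at 51.4 ± 16.4 FPKM by the headers and 30.1 ± 3.598 FPKM by the published values (SD, n = 2 each) against 54.9 ± 15.9 FPKM in late 2-cell control. By the headers the Nobox call was lost without late 2-cell control library A (adjusted p = 0.0688), control library B (adjusted p = 0.132) or the headed 4-cell control library B (adjusted p = 0.213). 

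The readings also differ for FK866 at the 4-cell stage. By the headers FK866 against control rests on 1 library, assumed to vary like the other groups. There 3 of 6 genes were called higher, where 28.3% of 9446 genes were called and 18.1% called higher: Bcl2l10 by 4.55 (SE 0.61, adjusted p = 0.00101), Nobox by 3.44 (SE 0.93, adjusted p = 0.0217) and Cpeb1 by 3.10 (SE 0.95, adjusted p = 0.0354). Zp2, at 9.33-fold, was not called (3.08 ± 1.46 SE, adjusted p = 0.14), and the median of all genes was 0.25. Fitted on the compared columns alone, none of the 3 was called, with adjusted p = 0.164 for Bcl2l10. The Nobox call (adjusted p = 0.0913) and the Cpeb1 call (adjusted p = 0.122) were lost without the 4-cell control library B, and the Cpeb1 call also without library A (adjusted p = 0.0539). In the published naming 4-cell FK866 is the column headed late 2-cell Sirt1 and its control the column headed late 2-cell TSA. Then 1 of 5 genes tested was called, Bcl2l10, higher by 3.37 (SE 0.50, adjusted p = 0.0428), where 0.225% of 8003 genes were called and 0.187% called higher. It went from 4 and 3 reads to 193 and 47 reads, a 32.7-fold difference. That call was lost without either library of the control (adjusted p = 0.064 and 0.0597) or without library A of FK866 (adjusted p = 0.0678), an alternative added after the data were seen. Nobox, with 0 and 7 reads against 0 in both, was under the minimum of 1 FPKM, and Cpeb1 was 4.74-fold higher (1.42 ± 0.77 SE, adjusted p = 0.567). Mos had 0 reads in both control libraries and 294 and 0 reads with FK866 (2.21 ± 1.15 SE, adjusted p = 0.557), so its difference rests on 1 library.

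For NMN against FK866 at the 4-cell stage, limma called none of the genes tested by either reading. By the headers 1 library stood against 1, so the spread came wholly from the other groups and the p-values rest on it. There 0 of 5 genes were called where 10.5% of 8547 genes were, and 1 had an unadjusted p below 0.05: Cpeb1, 9.82-fold lower (-2.49 ± 1.09 SE, adjusted p = 0.187). By the published values 0 of 6 genes were called, with 0 at an unadjusted p below 0.05 and 0.188% of 8490 genes called, and Bcl2l10 was 2.06-fold higher (0.75 ± 0.50 SE, adjusted p = 0.857). Without library B of the column headed 4-cell control, Bcl2l10 was called higher there (1.63, adjusted p = 0.0393), an alternative added after the data were seen.

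**Figure D3:**
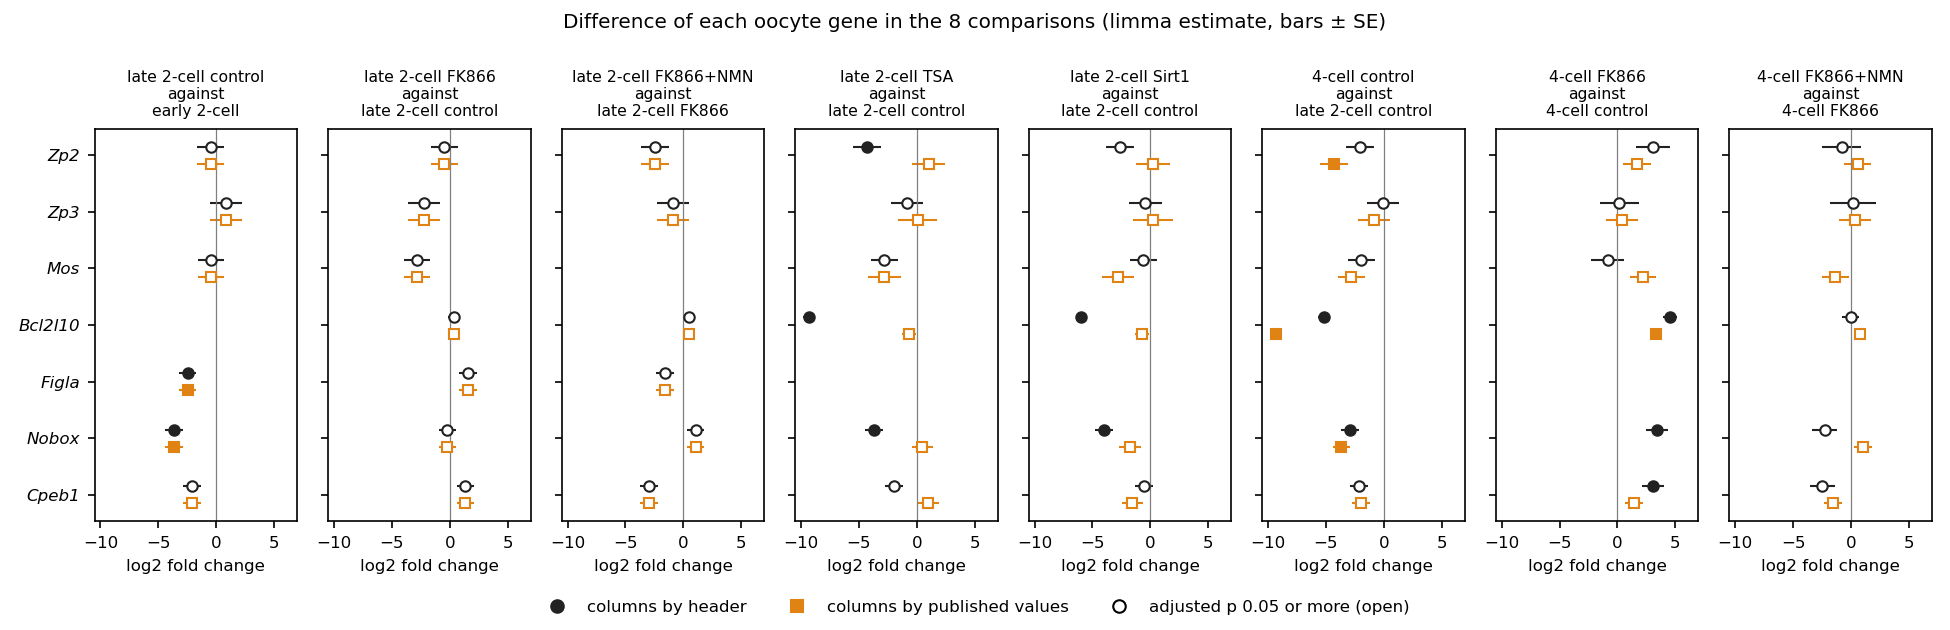
Log2 fold change (limma estimate ± SE) of the 7 genes in the 8 comparisons, with columns named by header (black circles) or by the published values (orange squares), filled where the adjusted p was below 0.05. Bcl2l10 in the TSA comparison lies at -9.33 by the headers and at -0.66 by the published values.

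Other genes of the same roles were read by lists chosen by role. Of 5 zona and egg surface genes, Zp2 and Zp3 included, 1 was called between early 2-cell and late 2-cell control. Over all 9996 genes tested 18.8% were called and 9.31% called lower. The 1 called was Izumo1r (Juno, the egg receptor for sperm), at 141 FPKM in early 2-cell and 9.66 FPKM in late 2-cell control (log2 fold change -3.81 ± 0.84 SE, adjusted p = 0.0109). Under the header late 2-cell TSA, 3 of 5 were lower than control, where 11.4% of 9049 genes were: Zp2, Izumo1r (-3.34 ± 0.84 SE, adjusted p = 0.0224) and Astl, the cortical granule protease ovastacin that cleaves ZP2 (-3.00 ± 0.72 SE, adjusted p = 0.0182). By the headers Izumo1r was also lower with Sirt1 (-3.09 ± 0.84 SE, adjusted p = 0.0381), the 1 of 5 called, where 8.35% of genes were called lower. In 4-cell FK866, 1 library, it was 3.59 ± 1.02 (SE) higher than in 4-cell control. Izumo1r, Astl and Zp2 were lower in the 3 4-cell columns of the published naming than in its 5 late 2-cell columns, with 0 to 0.789 FPKM against 6.64 to 29.5 FPKM for Izumo1r and 0.449 to 3.65 FPKM against 10.6 to 42.9 FPKM for Astl. Over all genes 14.6% were lower in this way and 13.7% higher, which applies to each stage range given below. Cd9, the egg tetraspanin needed for sperm fusion, had the opposite order: it was at 42.8, 49.9 and 41.2 FPKM in the columns headed TSA, Sirt1 and 4-cell control and at 8.46 to 25.3 FPKM in the others.

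Of 6 oocyte transcription factors, 3 fell from early 2-cell to late 2-cell control: Figla, Nobox and Lhx8, a LIM homeobox factor of the oocyte (-3.52 ± 0.69 SE, from 125 to 10.9 FPKM, adjusted p = 0.0062). Over all 9996 genes tested 9.31% were called lower and the median was -0.12. The median of the 6 factors was -2.96, or -3.48 with genes at 0 set at their bound. Lhx8 had 0 reads in the columns headed late 2-cell TSA and late 2-cell Sirt1. Sohlh2 was at 0 in late 2-cell control and at 5.28 FPKM in late 2-cell FK866 (2.65 ± 0.42 SE, adjusted p = 0.0288). It was the 1 factor of 6 called with FK866, where 0.496% of genes were called. With NMN added Sohlh2 was at 0 again (adjusted p = 0.0107), the 1 of 5 factors called, where 3.05% of genes were called lower. Its level was also 6.41 FPKM in the single library headed 4-cell FK866, which is TSA by the published values. That was 2.89 ± 0.51 (SE) higher than late 2-cell control. The library headed 4-cell FK866+NMN, Sirt1 by the published values, had Sohlh2 at 0. Of the oocyte secreted and chromatin list, Kit was the 1 gene tested between early 2-cell and late 2-cell control, and it fell (-3.31 ± 0.75 SE, adjusted p = 0.013). Dppa3 (Stella), a maternal factor that protects DNA methylation in the zygote, was at 762 to 2058 FPKM in the late 2-cell columns and 3256 to 3654 FPKM in the 4-cell columns by the published values. By the headers it was higher than late 2-cell control with TSA (0.83, adjusted p = 0.00804), with Sirt1 (0.66, adjusted p = 0.0248) and in 4-cell control (0.81, adjusted p = 0.014), and lower in 4-cell FK866 than in 4-cell control (-2.24, adjusted p = 0.000106). H1f8, the oocyte linker histone, was at 135 to 481 FPKM in the late 2-cell columns and 6.95 to 22.7 FPKM in the 4-cell columns by the published values.

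Among 10 genes of the Mos pathway and of meiotic arrest, Wee2, the oocyte kinase that holds CDK1 inactive, was the most abundant. It was at 515 FPKM in late 2-cell control and at 0.165, 2.92 and 7.99 FPKM in the columns headed late 2-cell TSA (-8.79 ± 0.50 SE), late 2-cell Sirt1 (-7.05 ± 0.50 SE) and 4-cell control (-6.07 ± 0.50 SE), all called lower (adjusted p of 0.00124 or less). Mapk3 (ERK1), the kinase at the end of this cascade, went from 81.0 FPKM to 1.49, 3.28 and 6.41 FPKM and was called in all 3. Of the 9 genes of this list tested in each, 2, 3 and 2 were called lower, where 11.4%, 8.35% and 6.42% of all genes were. By the published values these are the 4-cell columns. In that naming the late 2-cell TSA and Sirt1 columns held Wee2 at 1016 and 555 FPKM and Mapk3 at 126.5 and 70.1 FPKM. Of the 9 genes of CPEB-dependent polyadenylation, 2 were called between early 2-cell and late 2-cell control, where 18.8% of all genes were: Eif4enif1 (4E-T) fell by 1.85 (SE 0.40, adjusted p = 0.01) and Cpsf4, a subunit of the cleavage and polyadenylation factor, rose by 1.76 (SE 0.41, adjusted p = 0.0151). None was called with FK866, TSA or Sirt1 at the late 2-cell stage by the headers. In the published naming TSA is the single library headed 4-cell FK866. There Cpsf4 (-2.77 ± 0.51 SE) and Aurka (-2.74 ± 0.62 SE) were lower than in late 2-cell control, and the median of the 9 genes was 0.0085.

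Of the 15 Bcl2 family genes in the table, Mcl1, another survival protein, is given for its level. It rose from 1.97 FPKM in early 2-cell to 111 FPKM in late 2-cell control (5.24 ± 0.49 SE, adjusted p = 0.000113), and by the published values it was at 212 to 292 FPKM in the 4-cell columns against 16.6 to 111 FPKM in the late 2-cell columns. Bax, which opens the outer mitochondrial membrane, was at 24.1, 18.3 and 15.9 FPKM in the columns headed late 2-cell TSA, late 2-cell Sirt1 and 4-cell control. It was called higher in each than in late 2-cell control (1.39 FPKM; adjusted p = 0.0096, 0.021 and 0.033). Of the family genes tested there, 3 of 13, 2 of 13 and 1 of 12 were called higher and 1 lower in each. Over all genes 5.72%, 4.6% and 3.86% were called higher. By the published values these are the 4-cell columns, where Bax was at 15.9 to 24.1 FPKM against 0 to 13.1 FPKM in the late 2-cell columns. The markers of granulosa and cumulus cells, which surround the egg, were low: the 8 in the table summed to 0 to 10.6 FPKM a column, where the 7 oocyte genes summed to 32.8 to 2397 FPKM. The highest single value was that of Cyp19a1, 8.12 FPKM in the column headed 4-cell FK866, 1 library, against 0 in 4-cell control (3.19 ± 0.52 SE). Of the 8 markers 3 were above 0 in that column, and Star, Foxl2, Ptgs2, Ptx3 and Tnfaip6 were at 0. A part of granulosa or cumulus cells in the levels of that column was not tested.

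**Figure D4:**
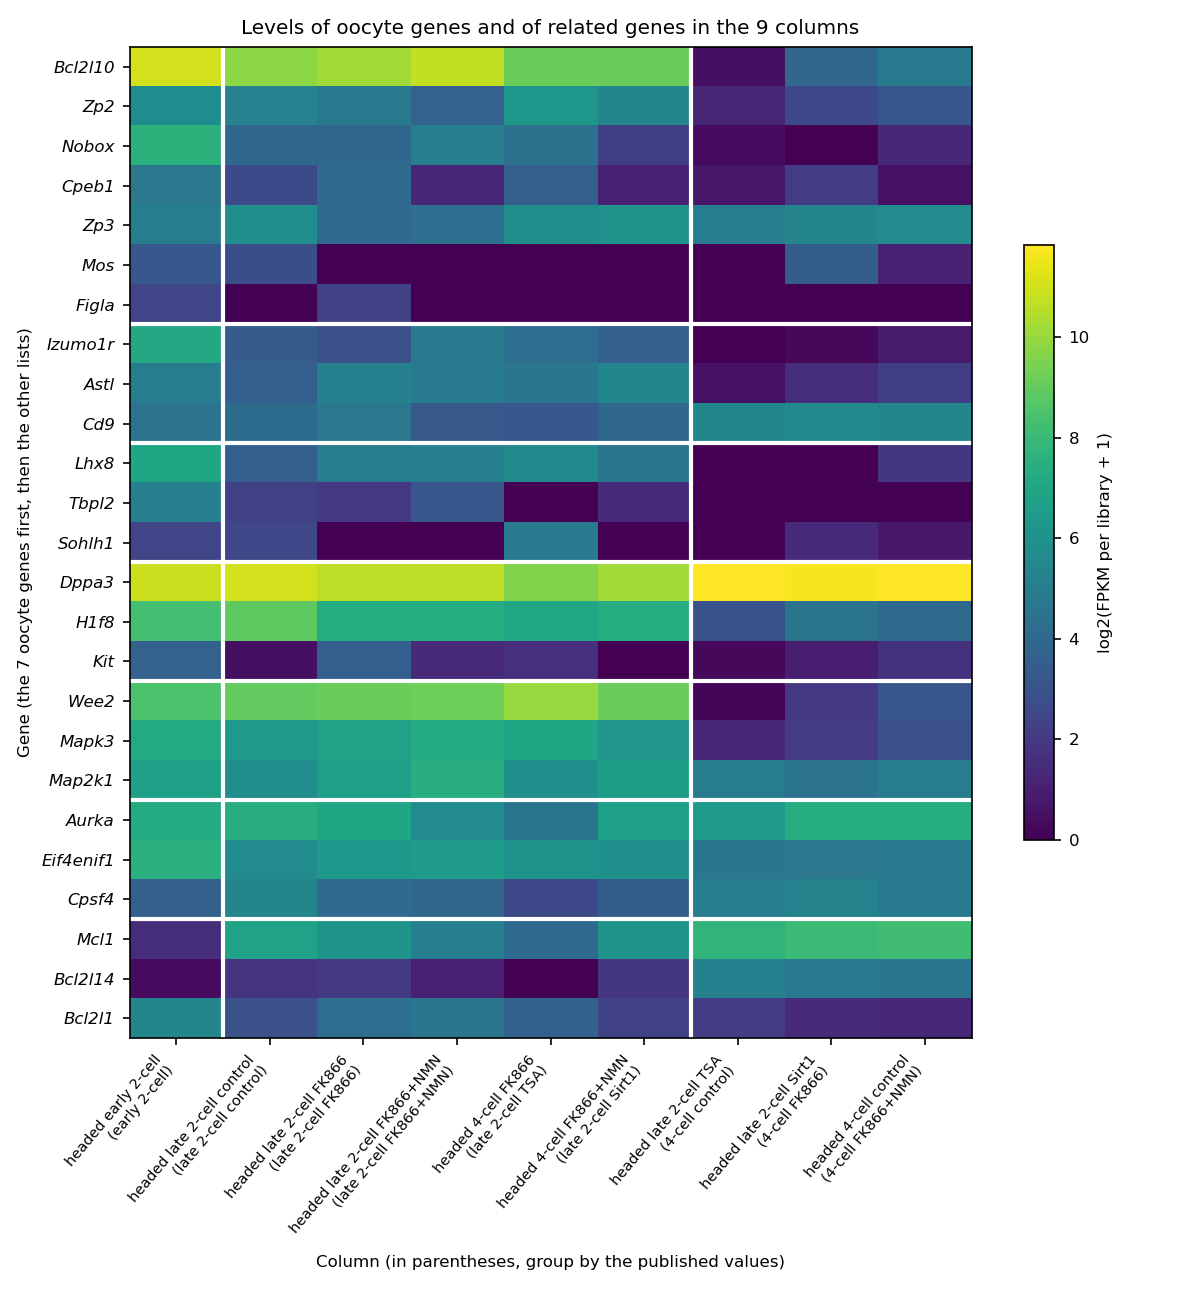
Levels as log2(FPKM per library + 1) of the 7 oocyte genes and of the 3 most abundant other genes of 6 lists (rows, granulosa markers left out) in the 9 columns, ordered by the stage that the published values give, with white lines between stages and lists. Bcl2l10, Zp2, Nobox, Izumo1r, Astl, Lhx8, Wee2 and Mapk3 are dark in the 3 columns at the right, Dppa3 and Mcl1 are bright there, and Zp3 differs little.

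Likeness to other genes was measured by Pearson's r of log2(FPKM per library + 1) over the 9 columns, among 12263 genes with at least 1 FPKM in some column, as a description over points that share libraries. The genes most like Bcl2l10 were Armc10 (r = 0.993), Plac8 (r = 0.992) and Mgst3 (r = 0.989), and those most like Zp2 were Ecpas (r = 0.979), Idh3a (r = 0.974) and Elavl3 (r = 0.971). Nobox was most like Adgrl4 (r = 0.986), Mrpl48 (r = 0.983) and 4933427D06Rik (r = 0.981), and Cpeb1 most like Steap2 (r = 0.969), Gm13041 (r = 0.963) and Ust (r = 0.946). For Zp3 they were Zfp719 (r = 0.955), Gm29609 (r = 0.893) and Papolb (r = 0.889). Among the 7 genes themselves, Bcl2l10 was nearest to Zp2 (r = 0.86) and Nobox (r = 0.854), Cpeb1 to Figla (r = 0.772), and Zp3 had an r of -0.57 with Figla. The closest genes to Mos (1700028J19Rik, Gm16553 and 4930473A02Rik) and Figla (Igkv13-87, Gm32916 and Gm26783) rest on a few columns above 0.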

How the data were processed

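RNA-seq was described for 18 samples in 9 groups, and 24 CUT&Tag samples were not analysed here. Per the labels and methods, reads were base-called with CASAVA 1.4, checked with FastQC, trimmed with Trim Galore, aligned to mm10 with HISAT2 and counted with featureCounts. The deposited values are FPKM made by the authors, 1 column a group, in 15748 rows of which the last is incomplete. No column of per-sample values went unused.

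Value times exon length (GENCODE M21, GRCm38, 15360 genes) is a sum of whole multiples of 1 step a library, and the totals and reads of the libraries follow from these steps. The separation and the limma fit were tested on simulated data. Bcl2l10 gave whole reads at 1237 bases in place of 1220, found from 5 columns, and that length was used. Columns of 2 libraries are sums, and levels are per library. Intervals and limits at 0 cover counting error only.

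The published values of genes equalled those of the columns headed late 2-cell TSA, late 2-cell Sirt1 and 4-cell control, as 4-cell control, FK866 and FK866+NMN, for 84 of 84 genes each. Published directions matched the column headed 4-cell FK866 for TSA in 1203 of 1203 genes, in a list held only in part, and that headed 4-cell FK866+NMN for Sirt1 in 771 of 819, the most of any column, the 7 genes left out. Late 2-cell control, FK866 and FK866+NMN matched in 117, 118 and 117 of 118.

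limma 3.58.1 (R 4.3.3) was fitted to log2(FPKM + 1) of all 16 libraries, with a pseudocount of 1, genes at 1 FPKM or more in a library of the compared columns, 7 residual degrees of freedom, moderated with a trend, two-sided, and Benjamini-Hochberg adjustment at 0.05. P-values measure the spread between libraries, which may be technical. Bcl2l10 in early 2-cell had no single separation and was a missing value in the fit. The fit was repeated with the pseudocount at 0.1 and at 5, the low-value filter at 5 FPKM or off, median centring, with limma-voom on recovered reads, the compared columns alone, each library left out, and the published naming of columns. The 7 genes and the lists (zona and egg surface, oocyte transcription factors, oocyte secreted and chromatin factors, Mos-MAPK and meiotic arrest, CPEB polyadenylation, Bcl2 family, granulosa and cumulus markers) were chosen with earlier results of these data known. Genes to be named from each list were the 3 most abundant and up to 2 called genes with the largest change a comparison. Not all of these are given in the text. Among those left out are Cdk1 (2.32 ± 0.45 SE) and Cdc25b (-3.43 ± 0.66 SE), called in late 2-cell control against early 2-cell. For each of the 7 genes the 3 most like it were named. List genes not among the rows were not analysed here. Python 3.11.15, numpy 2.4.6, pandas 2.3.3 and matplotlib 3.10.9 were used.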

Additional observations from a re-analysis of the deposited data

Results flagged for a closer look

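One result differed between stages by its own test. The effect of FK866 on Bcl2l10 by the headers was 4.18 larger at the 4-cell stage than at the late 2-cell stage on the log2 scale (SE 0.785, limma interaction, adjusted p = 0.0119), with 1222 of 11036 genes past the threshold of that test. By the published values the difference was 2.99 (SE 0.702, adjusted p = 0.233), with 0 of 10658 genes past it and 2 libraries in each group. The 4-cell FK866 column holds 1 library by the headers, and Sirt1 was low in it, at 7.61 FPKM. The cause was not tested.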

How the results depend on the processing

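No paired analysis was possible because the deposited columns sum the libraries and carry no replicate number. The number of the 7 genes called moved as follows, with the number in the report first; Bcl2l10 has no voom value, since its early 2-cell reads could not be separated, so counts with voom leave it out. Late 2-cell control against early 2-cell went from 2 to 1 with a pseudocount of 0.1, a minimum of 5 FPKM, no filter or median centring, to 3 with the compared columns alone, and to 0 to 1 with a library left out. Late 2-cell FK866 went from 0 to 1 with voom and 0 to 1 with a library left out, and FK866+NMN from 0 to between 0 and 2 with a library left out. TSA went from 3 to 0 with the columns named by the published values 2 with a pseudocount of 0.1 or no filter and 1 to 3 with a library left out. Sirt1 went from 2 to 1 with voom, where Nobox was called, 0 with the published naming, 3 with the compared columns alone and 2 to 3 with a library left out. The 4-cell control went from 2 to 1 with either pseudocount or no filter, 0 with voom, where Nobox had adjusted p = 0.171, 3 with the published naming and 1 to 2 with a library left out. The 4-cell FK866 group went from 3 to 1 with a pseudocount of 0.1 or the published naming, 2 with no filter or median centring, 4 with a pseudocount of 5, 0 with the compared columns alone or with voom, where Nobox (adjusted p = 0.0832) and Cpeb1 (adjusted p = 0.0914) missed the threshold, and 1 to 2 with a library left out. The count for 4-cell FK866+NMN was 0 in each setting by the headers, where the compared columns alone could not be fitted and leaving out a library gives no value. With the published naming it was 0 to 1 with a library left out, 1 without library B of the column headed 4-cell control. In that naming TSA and Sirt1 had 0, 4-cell control 1 to 3 and 4-cell FK866 0 to 2 with a library left out. The cause of these moves was not tested.

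Directions turned as follows (log2 fold changes). Median centring gave Zp3 0.40 with FK866+NMN, 0.12 with TSA, 0.084 with Sirt1, 0.10 for 4-cell control and -0.45 for 4-cell FK866, and Bcl2l10 0.52 for 4-cell FK866+NMN. A pseudocount of 5 gave Mos 0.024 with Sirt1. The published naming gave, for TSA, Zp2 1.01, Zp3 0.069, Nobox 0.49 and Cpeb1 0.95, for Sirt1, Zp2 0.20 and Zp3 0.24, for 4-cell FK866, Mos 2.21 and Nobox -0.31, and for 4-cell FK866+NMN, Zp2 0.57, Bcl2l10 0.75 and Nobox 1.04. With a library left out, Nobox with FK866 ranged from -0.88 to 0.47, Zp3 with FK866+NMN from -3.54 to 1.77, Mos with Sirt1 from -2.81 to 1.60, Zp3 from -0.43 to 0.22 for 4-cell control and from -0.15 to 0.50 for 4-cell FK866. The median level over genes and columns went from 10.1 to 17.4 FPKM when sums were not divided by the number of libraries.

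Over all genes, the calls with FK866 went from 47 to between 4 with the compared columns alone and 276 with voom, and those with FK866+NMN from 311 to between 0 and 1055 in the same settings. The published naming took Sirt1 from 1201 to 135 calls, 4-cell control from 967 to 1549, 4-cell FK866 from 2670 to 18 and 4-cell FK866+NMN from 894 to 16. Sirt1 (791) and TSA (1057, from 1549) fell with the compared columns alone, and 4-cell FK866+NMN went to 531 with a minimum of 5 FPKM, 493 with median centring and 1449 with voom. Median centring took the share of calls that were lower from 36.2 to 66.7% for FK866, 87.5 to 7.27% for FK866+NMN, 66.6 to 25.9% for TSA, 64.4 to 40.8% for Sirt1, 36.1 to 59.6% for 4-cell FK866 and 68.8 to 43.8% for 4-cell FK866+NMN. With a library left out, FK866 had 327 to 414 calls and FK866+NMN 623 to 1522, TSA had 944 without its library A and 4-cell control 520 without its library B.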
